A study of Mus musculus with 4 samples.

Results

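The 10 genes described here encode the enzymes and core subunits of 3 linked systems that act on DNA methylation or on a histone mark in mouse cells. Dnmt1, Dnmt3a and Dnmt3b write DNA methylation, and Uhrf1 recruits Dnmt1. Tet1, Tet2 and Tet3 oxidize the methyl mark, and Ezh2, Eed and Suz12 form the core of Polycomb repressive complex 2 (PRC2). They were chosen by name for their function, and all 10 were found among the 49997 gene rows of each library. RNA was sequenced from wild-type iMOPs, mouse otic progenitors made into a continuously growing line, in 2 libraries of iMOP-derived neurons and 2 libraries of proliferating iMOPs. The neuron cultures received Neurobasal medium with N21 supplement, L-glutamine and 1 µM K03861, which inhibits the kinase CDK2. The proliferating cultures received DMEM/F12 with N21, carbenicillin and 20 ng/ml bFGF, a growth factor. The labels do not say how long the cells were differentiated, nor whether libraries 1 and 2 of a group came from separate cultures, so p-values measure only the spread between these libraries. The comparison asks how the levels of these genes differ between the neuron and the proliferating state of 1 cell line.

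DNA methylation at CpG sites is copied after replication by the maintenance methyltransferase Dnmt1, which Uhrf1 recruits to hemimethylated DNA. Dnmt3a and Dnmt3b set new methylation, and the Tet dioxygenases convert methylcytosine to hydroxymethylcytosine and further oxidized forms. PRC2 methylates lysine 27 of histone H3 through its catalytic subunit Ezh2, with Eed, which binds the mark, and Suz12, which holds the complex together. Maintenance methylation and Ezh2 are known to be high in dividing cells, and Dnmt3a and Tet3 are known for their roles in neurons.

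The start regions of these genes are shown because several of the genes are known to follow the cell cycle, and the E2F factors drive many genes at the entry into S phase. RefSeq windows of build GRCm38.p6, from 250 bases before to 50 bases after each annotated start, were found for all 10 genes, 15 windows in all. The E2F-type 8-base motif was searched on both strands as TTTGGCGC, TTTCCCGC, TTTCGCGC or TTTGCCGC. It was present for 4 of the 10 genes, Dnmt1, Uhrf1, Ezh2 and Suz12, and in 2.26% of all 32851 windows. By gene, 40.0% of the 10 genes held it, as did 8 of 20 genes of an S phase list (40.0%) and 2.60% of all 27025 genes with a window. In the stretches below the match is in capitals.
Dnmt1, chr9:20952794-20952873, minus strand, the third of 3 annotated starts: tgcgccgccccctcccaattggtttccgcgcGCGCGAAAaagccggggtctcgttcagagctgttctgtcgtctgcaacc
Uhrf1, chr17:56304092-56304171, plus strand, the second of 2 annotated starts: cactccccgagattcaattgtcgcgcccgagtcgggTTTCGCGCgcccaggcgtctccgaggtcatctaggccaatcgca
Suz12, chr11:79992856-79992935, plus strand: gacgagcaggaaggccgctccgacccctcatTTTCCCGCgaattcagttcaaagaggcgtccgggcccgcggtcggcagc
Ezh2, chr6:47595019-47595063, minus strand: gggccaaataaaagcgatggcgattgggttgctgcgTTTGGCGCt
The Ezh2 match began at base 4 after the start and the others lay 219, 185 and 219 bases before it for Dnmt1, Uhrf1 and Suz12. In Dnmt1 the match is the reverse complement of TTTCGCGC, and the same window held a further match at base 34 after the start. The windows of Dnmt3a, Dnmt3b, Tet1, Tet2, Tet3 and Eed held none of these letters. The most CpG-rich window of each gene held 17 to 57 CpG dinucleotides, against a median of 7 over all windows. Each form of the motif contains a CpG, and the share among windows of like CpG count was not tested. A match describes the letters of the window and does not show that a factor binds there.

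Total counts were between 3150354 and 32913243 per library, of which 88.2% to 98.1% fell on 7 ribosomal RNA and rRNA-like genes that were set aside. The 4 libraries kept 292302 to 3241915 counts, and levels are given below as CPM (counts scaled to a common library size) of these, scaled by the trimmed mean of M-values (TMM). At 3 counts, a count of 0 allows a level of up to 0.798 CPM in the deepest library and 9.76 CPM in the shallowest. Libraries of the same number resembled each other more than libraries of the same group (Pearson correlation of log2 CPM across genes 0.783 and 0.817 by number, 0.496 between the neuron and 0.400 between the proliferating libraries), so differences are also given within each number. By summed level, the division and pan-neuronal lists ran against the labels, and the otic progenitor list ran with them. The summed level of 16 mitosis genes was 2771 and 6403 CPM in the libraries labelled neuron 1 and 2, against 390.4 and 979.3 CPM in those labelled proliferating 1 and 2. The summed level of 25 S phase genes was 2499 and 2255 CPM in the neuron libraries, against 647.4 and 1117 CPM in the proliferating libraries. The summed level of 16 pan-neuronal genes was 3293 and 4409 CPM in the neuron libraries, against 4695 and 9287 CPM in the proliferating libraries. Of 10 otic progenitor genes, Pax8 was at 0 in every library, Pax2 had 1 and 0 counts in the neuron libraries, against 0 and 0 counts in the proliferating libraries, and Gata3 had 2 and 0 counts in the neuron libraries, against 1 and 0 counts in the proliferating libraries. Sox2, also of that list, stood at 123.2 and 201.1 CPM in the neuron libraries, against 341.6 and 458.5 CPM in the proliferating libraries. The list's sum was 2244 and 2013 CPM in the neuron libraries, against 3257 and 8528 CPM in the proliferating libraries. Vim alone gave 1305 and 1248 CPM of it in the neuron libraries, against 2059 and 6934 CPM in the proliferating libraries. Of the 6 tested otic progenitor genes, 2 were lower in the neuron library within both numbers and 0 were higher within both. The sum of 7 mesenchyme genes was 99.3 and 10.4 CPM in the neuron libraries, against 6.51 and 9.17 CPM in the proliferating libraries. Acta2 alone gave 91.3 CPM of that sum in neuron 1. The sum of 5 immune genes was 5.85 and 0 CPM in the neuron libraries, against 13 and 0 CPM in the proliferating libraries. Groups are named by their labels throughout. Whether any labels were exchanged was not tested, and an exchange of the groups would turn every sign below. The part of cell division in the differences below was not tested either.

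No member of the 3 systems passed the test across all genes. In the fit of group alone, the quasi-likelihood test of edgeR called 0 of the 9 members that passed the count filter, and 0 had an unadjusted p under 0.05. Among all 9009 tested genes that fit called 0 (0% of them), and 97 (1.08%) had an unadjusted p under 0.05. DESeq2 and limma voom also called 0 genes, with 190 of 23761 and 81 of 9009 genes under the unadjusted p. A term for the library number gave 58 genes higher (0.644%) and 29 lower (0.322%) in the neuron libraries, together 0.966% of the tested genes, and again 0 of the 9 members were called. In that fit 2 members, Uhrf1 and Suz12, had an unadjusted p under 0.05, as did 9.92% of the tested genes. The median log2 fold change of the 9 members was 0.56, against -0.03 for all tested genes. Dnmt3b had too few counts to pass the filter. With 2 libraries per group, an exact permutation test of a single value cannot give a two-sided p below 0.333.

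Maintenance methylation genes were higher in the libraries labelled neuron within both numbers. Dnmt1 (chromosome 9, 20907209 to 20959888, GENCODE M21 on the same build) had 1312 and 102 counts in the neuron libraries, against 44 and 71 counts in the proliferating libraries. These were levels of 349.1 and 211.4 CPM in the neuron libraries, against 143.1 and 130.2 CPM in the proliferating libraries. The groups did not overlap, and the 2 proliferating libraries lay close together. In bulk RNA, a smaller share of cells with a transcript and less of it per cell cannot be told apart. The log2 ratio, neuron over proliferating, was 1.25 within number 1 (95% exact binomial interval of the counts 0.82 to 1.72) and 0.75 within number 2 (0.29 to 1.20). These ratios are given relative to the median ratio over tested genes, and the intervals cover counting error alone. The log2 fold change of Dnmt1 was 1.04 (SE 0.97) with group alone and 0.99 (SE 0.59, adjusted p = 0.635 in edgeR) with the number term.

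Uhrf1 (chromosome 17, 56303321 to 56323486), the factor that brings Dnmt1 to replicated DNA, had 625 and 39 counts in the neuron libraries, against 12 and 17 counts in the proliferating libraries. Its level was 166.3 and 80.84 CPM in the neuron libraries, against 39.04 and 31.18 CPM in the proliferating libraries, with no overlap. Both its log2 ratios were above those of Dnmt1, at 2.06 within number 1 (1.24 to 3.02) and 1.42 within number 2 (0.56 to 2.34), although the intervals of the pair overlapped. With the number term its log2 fold change was 1.73 (SE 0.65, unadjusted p = 0.00837, adjusted p = 0.241 in edgeR). With group alone it was 1.82 (SE 1.01). Uhrf1 had the largest fold change of the 9 members in both fits.

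Of the de novo methyltransferases, Dnmt3a was lower in the neuron library within number 1, and Dnmt3b had few counts. Dnmt3a (chromosome 12, 3806007 to 3914443) had 517 and 42 counts in the neuron libraries, against 70 and 51 counts in the proliferating libraries. Its level was 137.6 and 87.06 CPM in the neuron libraries, against 227.7 and 93.53 CPM in the proliferating libraries, and the groups overlapped. The log2 ratio was -0.76 within number 1 (-1.12 to -0.38) and -0.06 within number 2 (-0.68 to 0.56), so a difference within number 2 was not detectable at this depth. The log2 fold change with the number term was -0.43 (SE 0.58, adjusted p = 0.921 in edgeR). With group alone it was -0.51. When the library proliferating 1 was left out it was 0.29, below the median of all genes in that fit, 0.39. An antisense gene, Dnmt3aos, shares 133 of the 16642 annotated exon bases of Dnmt3a, and the strand setting of the counting was not given in the sources used here.

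Dnmt3b (chromosome 2, 153649450 to 153687730) had the fewest counts of the 10 genes. It had 74 and 8 counts in the neuron libraries, against 3 and 7 counts in the proliferating libraries. Its level was 19.7 and 16.6 CPM in the neuron libraries, against 9.76 and 12.8 CPM in the proliferating libraries, and the lowest of these is the level that 3 counts stand for. The log2 ratio was 0.98 within number 1 (-0.62 to 3.29) and 0.41 within number 2 (-1.24 to 2.11), and neither could be told from 0 at this depth.

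**Figure D1:**
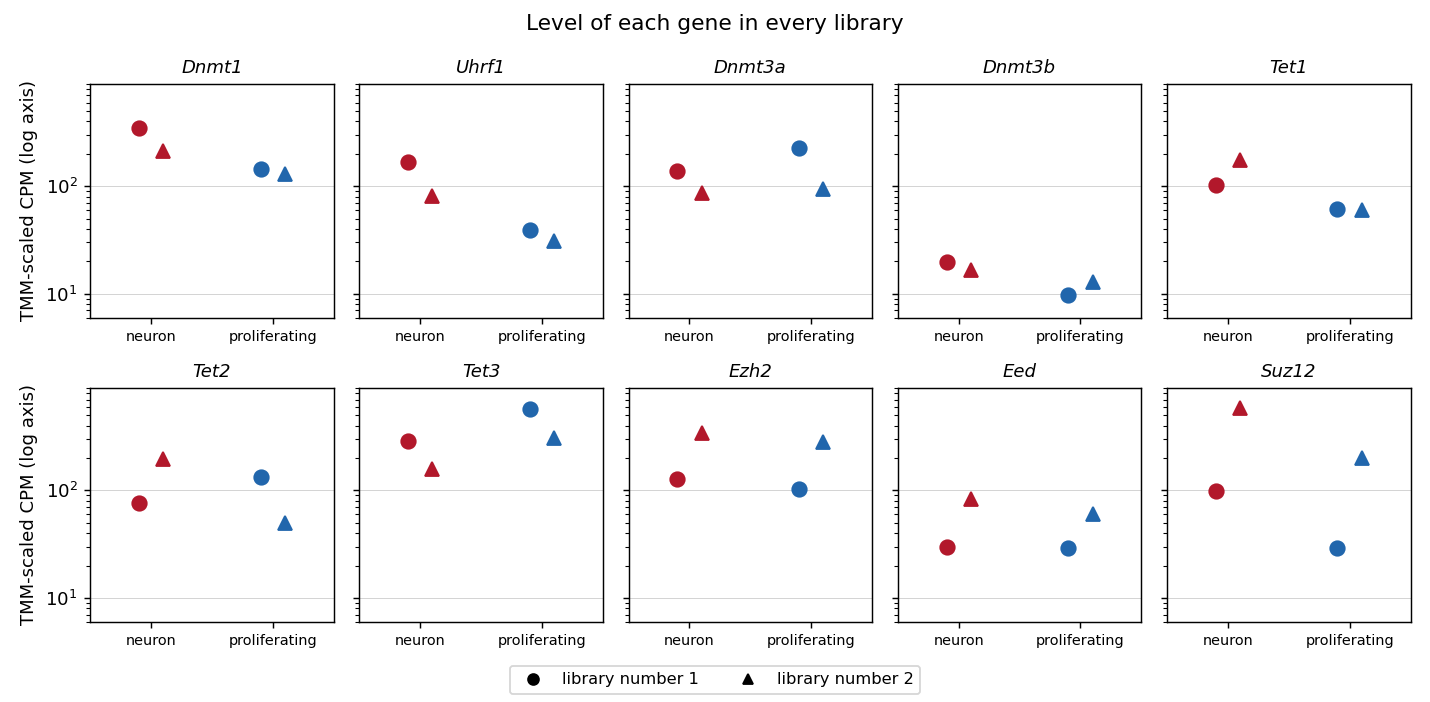
Level of each of the 10 genes in TMM-scaled CPM on a log axis, for neuron libraries (red, left) and proliferating libraries (blue, right), with circles for library number 1 and triangles for number 2. Dnmt1, Uhrf1 and Tet1 sit higher in both neuron libraries (for Dnmt1 349.1 and 211.4 against 143.1 and 130.2 CPM), Tet3 sits lower, and Ezh2, Eed and Suz12 sit higher in number 2 than in number 1 in both groups.

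The 3 Tet genes showed 3 different patterns. Tet1 (chromosome 10, 62804570 to 62908996) had 388 and 84 counts in the neuron libraries, against 19 and 33 counts in the proliferating libraries. Its level was 103.2 and 174.1 CPM in the neuron libraries, against 61.81 and 60.52 CPM in the proliferating libraries. The groups did not overlap. Its log2 ratio was 0.71 within number 1 (0.04 to 1.46) and 1.57 within number 2 (0.97 to 2.20), and the fold change with the number term was 1.14 (SE 0.61, adjusted p = 0.557 in edgeR).

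Tet3 (chromosome 6, 83362373 to 83459084) ran the other way. It had 1082 and 76 counts in the neuron libraries, against 176 and 168 counts in the proliferating libraries. Its level was 287.9 and 157.5 CPM in the neuron libraries, against 572.6 and 308.1 CPM in the proliferating libraries. The groups did not overlap on this scale, by a narrow margin between 287.9 CPM in neuron 1 and 308.1 CPM in proliferating 2. Without TMM scaling these were 333.8 and 273.4 CPM, and the groups overlapped. Within numbers the log2 ratio was -1.02 (-1.26 to -0.79) and -0.92 (-1.33 to -0.52), a pair that differed less than its counting intervals. The fold change with the number term was -0.98 (SE 0.58, adjusted p = 0.635 in edgeR).

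Tet2 (chromosome 3, 133463679 to 133545139) went in opposite directions in the 2 numbers. It had 290 and 94 counts in the neuron libraries, against 41 and 27 counts in the proliferating libraries. Its level was 77.17 and 194.8 CPM in the neuron libraries, against 133.4 and 49.52 CPM in the proliferating libraries. The log2 ratio was -0.82 within number 1 (-1.30 to -0.31) and 2.02 within number 2 (1.39 to 2.70). The fold change with the number term was 0.56 (SE 0.65, adjusted p = 0.899 in edgeR), and without the library neuron 2 the fold change with group alone was -0.23, against 0.57 with all 4 libraries.

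Of the PRC2 core, Suz12 was higher in the neuron library within each number, and Ezh2 and Eed could not be told from 0. Suz12 (chromosome 11, 79993106 to 80034123) had 375 and 282 counts in the neuron libraries, against 9 and 110 counts in the proliferating libraries. Its level was 99.79 and 584.5 CPM in the neuron libraries, against 29.28 and 201.7 CPM in the proliferating libraries. The libraries numbered 2 were high in both groups, so the groups overlapped. Within numbers the log2 ratio was 1.74 for number 1 (0.79 to 2.88) and 1.58 for number 2 (1.26 to 1.91). With the number term the fold change was 1.63 (SE 0.62, unadjusted p = 0.00883, adjusted p = 0.247 in edgeR), and with group alone it was 1.55 (SE 1.22). Leaving out 1 library moved the value with group alone to -0.26 without neuron 2 and to 3.57 without proliferating 2.

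Ezh2 (chromosome 6, 47530139 to 47595341), the catalytic subunit, had 475 and 164 counts in the neuron libraries, against 32 and 155 counts in the proliferating libraries. Its level was 126.4 and 339.9 CPM in the neuron libraries, against 104.1 and 284.3 CPM in the proliferating libraries. The split by number was wider than the split by group. The log2 ratio was 0.25 within number 1 (-0.27 to 0.81) and 0.30 within number 2 (-0.02 to 0.63), and the fold change with the number term was 0.27 (SE 0.58, adjusted p = 0.961 in edgeR). That value was -0.08 after a GC correction. With group alone it was 0.25, with -0.65 without neuron 2 and -0.29 without proliferating 1.

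Eed (chromosome 7, 89954654 to 89980983), the subunit that binds the methylated histone tail, had 112 and 40 counts in the neuron libraries, against 9 and 33 counts in the proliferating libraries. Its level was 29.8 and 82.9 CPM in the neuron libraries, against 29.3 and 60.5 CPM in the proliferating libraries. Its log2 ratio was -0.01 within number 1 (-0.98 to 1.16) and 0.50 within number 2 (-0.20 to 1.21). The fold change with the number term was 0.26 (SE 0.68, adjusted p = 0.968 in edgeR). With group alone it was 0.30, with -0.62 without neuron 2 and -0.12 without proliferating 1. A gene on the opposite strand, E230029C05Rik, shares 261 of the 3828 annotated exon bases of Eed. Opposite-strand genes likewise share 178 of 4945 exon bases of Suz12 (Gm26563), 174 of 6678 of Ezh2 (Gm26625) and 43 of 16870 of Tet2 (Gm42567).

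**Figure D2:**
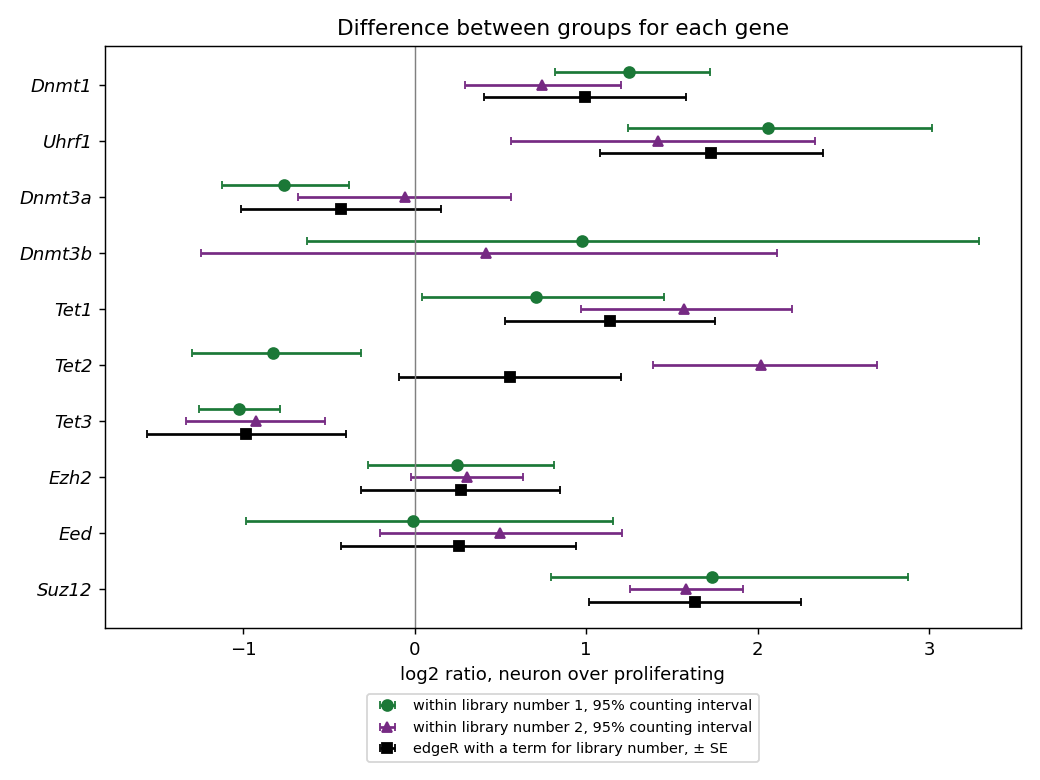
Log2 ratio, neuron over proliferating, of each gene within library number 1 (green) and number 2 (purple) with 95% counting intervals, and the edgeR log2 fold change with a term for library number (black) with its SE. Dnmt1, Uhrf1, Tet1 and Suz12 lie above 0 in both numbers with intervals off 0, Tet3 lies below 0 in both, and Tet2 lies at -0.82 and 2.02.

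Counted over the 9 tested members, 5 were higher in the neuron library within both numbers (Dnmt1, Uhrf1, Tet1, Ezh2 and Suz12), against 27.2% of all tested genes, and 2 were lower within both (Dnmt3a and Tet3), against 27.1%. These counts go by sign alone. The counting intervals of Ezh2 took in both signs (-0.27 to 0.81 and -0.02 to 0.63), as did that of Dnmt3a within number 2 (-0.68 to 0.56). The groups did not overlap with the neuron libraries higher for 3 members (Dnmt1, Uhrf1 and Tet1), against 9.41% of all tested genes, and with the neuron libraries lower for 1 member (Tet3), against 8.50%. A GC correction, with the number term, moved several of the values by over 1.5 times. It gave log2 fold changes of 1.02 for Suz12 (adjusted p = 0.824 in edgeR), 0.72 for Tet1, 0.30 for Tet2, -0.64 for Tet3 and -0.145 for Dnmt3a. The values of Dnmt1 and Uhrf1 grew with the correction, from 0.99 to 1.345 and from 1.73 to 2.08.

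Ratios between genes of 1 system, taken within each library and per length, do not depend on how libraries are scaled. The pairs were chosen after the values were seen and carry no test. Lengths were those implied by the deposited RPKM values, and they differ from the annotated exon bases. They were 3192 against 6678 bases for Ezh2 and 24667 against 16642 for Dnmt3a. The size of a ratio therefore depends on the lengths used, and its comparison between libraries does not. Dnmt3a per Dnmt1 was 0.101 (95% exact binomial interval 0.0911 to 0.112) in neuron 1 and 0.106 (0.0719 to 0.153) in neuron 2. It was 0.408 (0.276 to 0.609) in proliferating 1 and 0.184 (0.126 to 0.268) in proliferating 2. Dnmt3a relative to Dnmt1 was thus lower in both neuron libraries, and the intervals of neuron 2 and proliferating 2 overlapped. Uhrf1 per Dnmt1 was 0.810 (0.735 to 0.892) in neuron 1 and 0.650 (0.438 to 0.949) in neuron 2, against 0.464 (0.223 to 0.893) in proliferating 1 and 0.407 (0.225 to 0.699) in proliferating 2, and within each number the intervals overlapped.

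Tet3 per Tet1 was 3.98 (3.54 to 4.48) in neuron 1 and 1.29 (0.935 to 1.78) in neuron 2. It was 13.2 (8.22 to 22.5) in proliferating 1 and 7.27 (4.98 to 10.9) in proliferating 2. Each neuron interval lay below each proliferating interval. The 2 neuron libraries also differed from each other by more than counting error, so the spread within a group is wider than these intervals. Tet2 per Tet1 did not separate the groups, at 1.43 and 2.14 in the neuron libraries, against 4.12 and 1.56 in the proliferating libraries. None of these ratios was corrected for GC. Ezh1, the other catalytic subunit of PRC2, is known to be more abundant in non-dividing cells. It had 59 and 11 counts in the neuron libraries, against 6 and 4 counts in the proliferating libraries. These were 15.7 and 22.8 CPM in the neuron libraries, against 19.5 and 7.34 CPM in the proliferating libraries. Its log2 ratio was -0.347 within number 1 and 1.682 within number 2, and both counting intervals took in both signs. Ezh1 per Ezh2 was 0.0941 (0.0706 to 0.124) in neuron 1 and 0.0508 (0.0249 to 0.0934) in neuron 2, against 0.142 (0.0486 to 0.344) in proliferating 1 and 0.0196 (0.00526 to 0.0511) in proliferating 2. Ezh2 exceeded Ezh1 per length in all 4 libraries. Eed per Ezh2 was 0.365 (0.295 to 0.450) in neuron 1 and 0.378 (0.2605 to 0.537) in neuron 2. It was 0.436 (0.183 to 0.934) in proliferating 1 and 0.330 (0.219 to 0.483) in proliferating 2, and all these intervals overlapped. Suz12 per Ezh2 was 0.576 (0.502 to 0.661) in neuron 1 and 1.25 (1.03 to 1.53) in neuron 2, against 0.205 (0.0862 to 0.440) in proliferating 1 and 0.518 (0.402 to 0.666) in proliferating 2.

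**Figure D3:**
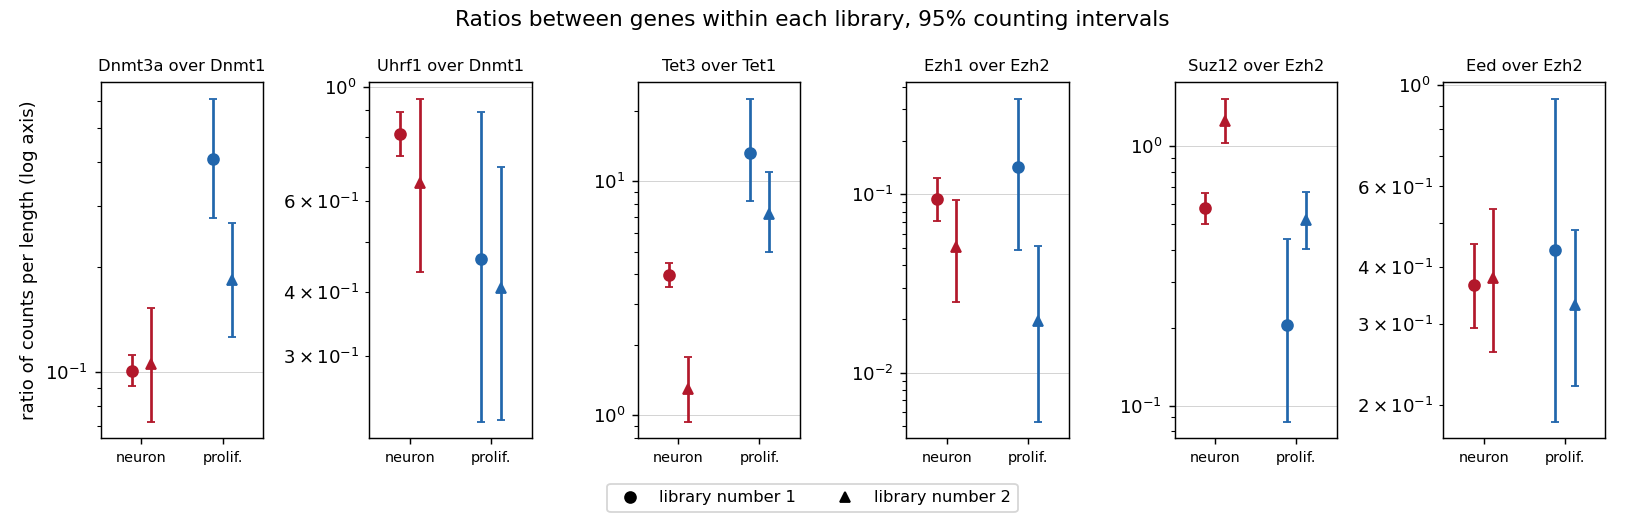
Ratio of counts per length between 2 genes within each library, on log axes that differ between panels, for neuron libraries (red, left) and proliferating libraries (blue, right), with circles for library number 1, triangles for number 2 and 95% counting intervals. Tet3 per Tet1 is 3.98 and 1.29 in the neuron libraries, against 13.2 and 7.27 in the proliferating libraries, with no overlap of intervals.

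In order of level per length, a different member led in each of the 4 libraries. This order rests on the lengths implied by the RPKM values. In CPM per kilobase, Dnmt1 led in neuron 1 at 55.2 and Suz12 in neuron 2 at 134, while Tet3 led in proliferating 1 at 44.5 and Ezh2 in proliferating 2 at 89.0. Dnmt1 stood at 55.2 and 33.4 CPM per kilobase in the neuron libraries, against 22.6 and 20.6 in the proliferating libraries. Dnmt3b was the lowest of the 10 in every library, at 3.40 and 2.87 CPM per kilobase in the neuron libraries, against 1.69 and 2.22 in the proliferating libraries. Dnmt3a, at 5.58 and 3.53 in the neuron libraries, against 9.23 and 3.79 in the proliferating libraries, stood below Dnmt1 in every library.

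Among genes that work with these enzymes, 1 passed the test with the number term. Of 8 tested partners of the Dnmt enzymes and Uhrf1, 1 rose and 0 fell. That gene was Hells, a remodeller needed for DNA methylation of repeats, with 331 and 271 counts in the neuron libraries, against 3 and 62 counts in the proliferating libraries. With the number term its log2 fold change was 2.60 (SE 0.66, adjusted p = 0.0232 in edgeR). Its call ended with a GC correction (1.61, adjusted p = 0.418 in edgeR), with DESeq2 size factors (2.58, adjusted p = 0.0641 in edgeR) and with no count filter (2.64, adjusted p = 0.0535 in edgeR), and with group alone it was not called, with values from 0.45 without neuron 2 to 5.07 without proliferating 2. The median of the partner list was 0.08. The other partners Usp7 and Mat2a had log2 fold changes of 0.01 and -0.29, and Dnmt3l, a cofactor of de novo methylation in germ cells, was at 0 in every library.

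With the number term, 0 of 10 tested methyl-CpG readers were called, with a median of -0.07, and Mbd2 had a value of -0.36. Of 11 tested Tet partners and base excision genes, 0 were called, with a median of 0.02. Ogt, which binds Tet proteins, was at 0.19 and Parp1 at 0.57. Of 7 other PRC2 subunits 0 were called, with a median of 0.17. Rbbp4 and Rbbp7, histone-binding subunits, were at -0.51 and 0.17. Of 19 tested PRC1 subunits 0 were called, with a median of -0.18, and Bmi1 and Pcgf3 were at 0.53 and -0.18. Of 7 genes that remove the Polycomb marks 0 were called, with a median of -0.02 and values of -0.53 for Kdm6b and 0.70 for Asxl2. Of 8 tested genes of histone H3 lysine 9 methylation and HP1, 0 were called, with a median of 0.49. Setdb1 was at 1.37 (SE 0.60, adjusted p = 0.382 in edgeR) and Cbx5 at 0.79.

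The cell cycle lists stood further from 0 than any of these. Of 19 tested S phase genes 1 rose (Pola1, a polymerase subunit, by 3.51) and 0 fell, with a median of 1.45, and of 15 tested mitosis genes 6 rose and 0 fell, with a median of 2.15. Mki67, a marker of dividing cells, had 1947 and 791 counts in the neuron libraries, against 15 and 97 counts in the proliferating libraries, with a log2 fold change of 3.30 (SE 0.65, adjusted p = 0.00112 in edgeR). Cenpe and Cenpf, which act at the kinetochore, rose by 3.50 and 3.53. Uhrf1 and Suz12, at 1.73 and 1.63, lay near the S phase median, and Dnmt1 and Tet1, at 0.99 and 1.14, lay below it. Of 11 tested pan-neuronal genes 0 rose and 1 fell (Stmn2, at -3.59), with a median of -1.10. Of 6 tested glial genes 1 rose (Aqp4, at 2.80) and 2 fell (Olig2 at -3.47 and Olig1 at -2.74), with a median of -1.36. The log2 ratio of Aqp4 was 0.469 within number 1 (-0.257 to 1.296). Within number 2 it was 5.98 (4.40 to 8.27), with 162 counts in neuron 2 and 3 in proliferating 2. Of 6 tested otic progenitor genes 0 were called, with a median of -0.91.

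Of 14 germline genes that DNA methylation is known to silence, 7 were at 0 in every library and 0 passed the count filter. Their summed level was 5.59 and 89.1 CPM in the neuron libraries, against 19.5 and 11 CPM in the proliferating libraries. Hormad1 had 20 counts in neuron 2 and 0 in the other 3 libraries. Sycp1 had 9 and 15 counts in the neuron libraries, against 2 and 3 counts in the proliferating libraries. Its level was 2.4 and 31.1 CPM in the neuron libraries, against 6.51 and 5.5 CPM in the proliferating libraries. Sycp1 was thus lower in neuron 1 than in either proliferating library.

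**Figure D4:**
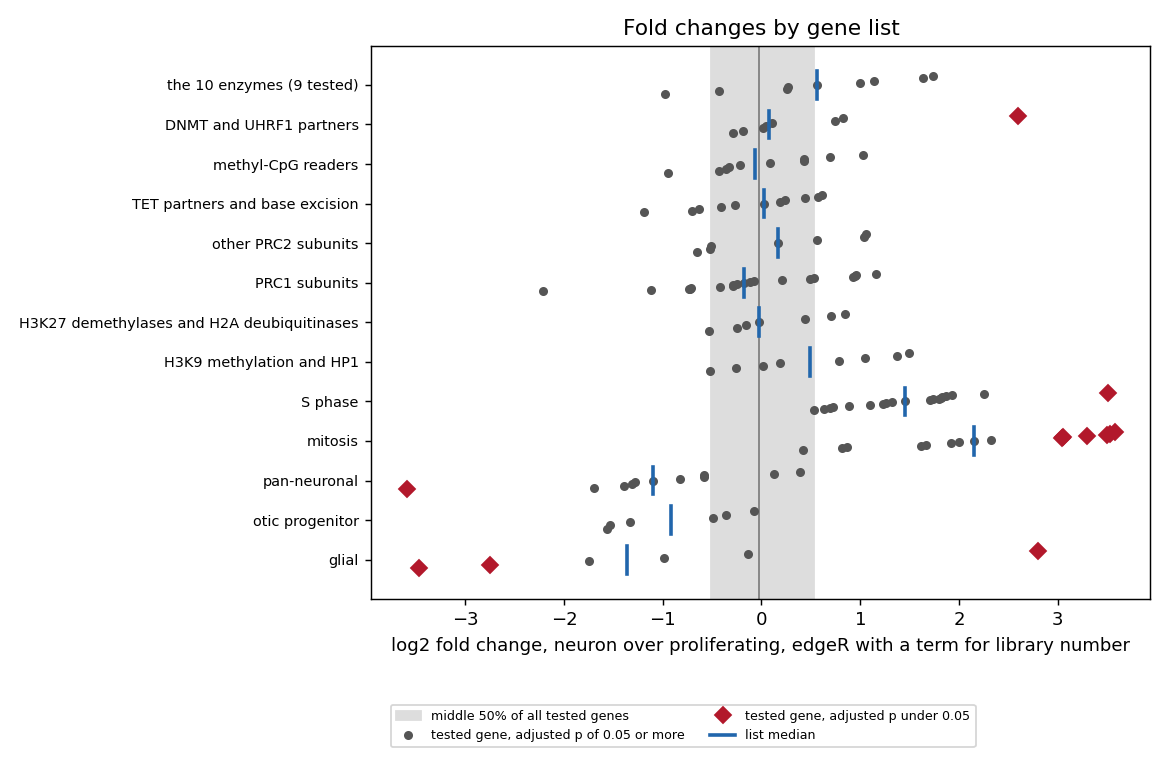
Log2 fold change, neuron over proliferating, of every tested gene of each list from edgeR with a term for library number, with red diamonds at an adjusted p under 0.05, blue bars at list medians and a grey band from -0.51 to 0.53 for the middle 50% of all tested genes. The 9 tested enzymes have a median of 0.56 and no diamond, and the mitosis list has a median of 2.15.

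For likeness of pattern, the distance between log2 CPM values, each centred on its mean over the 4 libraries, was taken against 5366 other genes whose mean log2 CPM reached 5. The genes closest to Dnmt1 were Ptgfrn (0.252), Tanc2 (0.312) and Ccdc137 (0.314), with 679 and 65 counts for Ptgfrn in the neuron libraries, against 27 and 38 counts in the proliferating libraries. Those closest to Ezh2 were Gnl2 (0.0474), Zrsr2 (0.0873) and Itgb1 (0.112), and Gnl2 had 327 and 111 counts in the neuron libraries, against 21 and 104 counts in the proliferating libraries. Those closest to Suz12 were Txlng (0.250), Slk (0.262) and Eea1 (0.290). The names describe 4 libraries and carry no test.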

How the data were processed

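DNase treatment of total RNA, removal of ribosomal RNA and a stranded kit gave the libraries, per the labels' protocols. The submitters' processing notes name HISAT2, SAMtools, featureCounts and DESeq2 and build mm10. The sources used here name no versions, annotation or strand setting. The authors deposited raw counts per gene, and RPKM values, which the authors scaled by gene length and library total. The RPKM values served for gene lengths, which matched across libraries within 0.001 for 17709 of 17709 genes, and for 2 alternatives.

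The members, lists and tests were chosen with earlier results of these data known. From the counts, 7 rRNA-like genes were removed (mt-Rnr1, mt-Rnr2, Rn18s-rs5, Lars2, Mir6236, Gm15564, AY036118). Groups were compared in edgeR 4.0.16 (R 4.3.3) by the quasi-likelihood test with TMM scaling and filterByExpr (9009 genes), two-sided, with Benjamini-Hochberg adjustment over all tested genes and a threshold of 0.05. This fit left 2 residual degrees of freedom, and 1 with the number term. SE is the fold change over the root of F. Same-numbered libraries deviated together (correlation across genes 0.737), but the labels do not say that numbers mark a shared source, and with 2 pairs the number is read as a library set. Within-number ratios are ratios of counts over library totals, less the median over tested genes, with exact binomial intervals (95%). All members are named, with, from each list, up to 3 called genes per direction by adjusted p and the 2 highest in mean level, which are left out for the marker and cell cycle lists. Of the genes this rule names, 1 is not reported here. Lists of mesenchyme and immune genes had 0 tested genes. Alternatives used DESeq2 1.42.0, limma 3.58.1, other scalings and filters, a GC spline (96.2% of tested genes had a GC value) and leaving out each library. The edgeR fits and limma voom with the number term were tested on simulated data, and the GC correction, DESeq2 and the RPKM fits were not.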

Additional observations from a re-analysis of the deposited data

Results flagged for a closer look

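Tet2 had opposite directions in the 2 library numbers, with both counting intervals off 0. Its log2 ratio, neuron over proliferating, was -0.823 within number 1 and 2.022 within number 2. The difference between the numbers was not tested, since a term for it would leave no residual degrees of freedom among 4 libraries.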

How the results depend on the processing

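With group alone, 0 genes and 0 members were called under every scaling, filter and tool run, at an adjusted p of 0.1, and without each library in turn (0 to 0). With the replicate block, that is the term for library number, 87 genes were called. With the block, the count was 32 with DESeq2 size factors, 55 with library totals, 73 with DESeq2 (3492 genes with an adjusted p), 160 with limma voom, 28 with the GC correction and 57 with rRNA-like genes kept, and 34 rose and 9 fell with no count filter. The last 2 were added after seeing the data. The cause of these shifts was not tested. In each of these fits 0 members were called. The smallest adjusted p of a member was 0.141 (Uhrf1, GC correction). Outside the settings that leave out a library, Dnmt1, Uhrf1, Tet1, Tet2, Suz12, Dnmt3a and Tet3 kept their direction in 17 settings each and Dnmt3b in the 5 that could give it a value, while Eed was at -0.0722 with limma voom and Ezh2 at -0.0808 with the block and GC correction. The median of all genes was 0.19 with limma voom and 0.47 with no count filter, against -0.03. Relative to the median with no filter, Ezh2 and Eed, at 0.27 and 0.32, lay below it. Without 1 library, log2 fold changes ran from -0.98 to 0.29 for Dnmt3a (the upper value without proliferating 1, where the median of all genes was 0.39), -0.62 to 0.96 for Eed, -0.65 to 1.19 for Ezh2, -0.26 to 3.57 for Suz12 and -0.23 to 1.45 for Tet2. They ran from 0.57 to 1.35 for Dnmt1, 1.14 to 2.24 for Uhrf1, 0.75 to 1.45 for Tet1 and -1.55 to -0.44 for Tet3. In those fits a lone library is assumed to vary like the other group.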
